A study of Mus musculus with 6 samples.

Results

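The TRIM (tripartite motif) genes were followed in GC-1spg cells, an immortalised mouse line that stands in for type B spermatogonia, after transfection with an siRNA against Mettl3. Members were the genes of the mRNA table whose symbol is Trim, a number and at most 1 further letter, and 68 of 22298 genes met that rule. The cells grew in DMEM with 10% FBS, received siRNA at 60% density and were collected 48 h later. The si-METTL3 group held 3 libraries, and so did the si-NC group, which received a control siRNA and which the labels tag as untreated. The labels print the same siRNA sequence for both groups, so that of the control remains unknown, and cells without siRNA were not analysed here. The labels do not say that the libraries of a group came from separate cultures, so p-values measure the spread between these libraries, which may be technical. RNA of whole cultures was sequenced, so fewer cells that express a gene and less RNA per cell cannot be told apart.

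Most TRIM proteins carry a RING domain, B-box domains and a coiled coil, though some lack the RING, and many act as E3 ubiquitin ligases, which pass ubiquitin from an E2 enzyme to a target protein. The C-terminal domain chooses the target. The PRY-SPRY domain is shared by many members that act in antiviral signalling, NHL repeats bind RNA or proteins, and a PHD finger with a bromodomain reads histone tails. METTL3 is the catalytic subunit of the enzyme that writes N6-methyladenosine on mRNA, a mark that takes part in the decay, splicing and translation of transcripts.

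The libraries held between 22146057 and 37698956 counts in the mRNA table. Mettl3 counts were 606, 578 and 683 in si-NC replicates 1 to 3 and 142, 134 and 136 in si-METTL3 replicates 1 to 3, a log2 fold change of -1.79 (SE 0.14, edgeR quasi-likelihood test, adjusted p = 0.000579). Of 19 markers of spermatogonia and the germ line, Sohlh1, Nanos2, Sall4 and Mael were at 0 in all 6 libraries, Ddx4 had 1 to 7 counts and Dazl at most 1. The summed level of these 19 markers ranged from 41.3 to 49.95 CPM (counts scaled to the library total) in si-NC and from 45.96 to 50.02 CPM in si-METTL3, most of it from Uchl1. Lung epithelium markers, 15 of 15 with counts, summed to 77.2, 68.0 and 145 CPM in the si-NC libraries. In si-METTL3 they summed to 154 to 192 CPM. In si-NC replicates 1 and 2 most of the sum came from Abca3, which was at 1983 to 2864 counts in every library. Sftpc was at 38, 1 and 1131 counts with si-NC against 1503, 1065 and 790 with si-METTL3. Scgb1a1 was at 3, 0 and 328 against 400, 277 and 213 counts. Ager differed less, at 74, 54 and 155 against 155, 115 and 102 counts. Red blood cell markers, 5 of 5 with counts, summed to 0.456, 0.796 and 12.1 CPM in the si-NC libraries and to 12.4 to 18.8 CPM in si-METTL3. Macrophage and leukocyte markers, 12 of 12 with counts, summed to 15.3, 14.5 and 34.2 CPM in the si-NC libraries and to 34.7 to 43.4 CPM in si-METTL3. Endothelial markers, 7 of 7 with counts, summed to 12.1, 13.3 and 18.7 CPM in the si-NC libraries and to 19.2 to 22.5 CPM in si-METTL3. For these 4 lists si-NC replicate 3 lay closer to the si-METTL3 libraries than the other si-NC libraries did. Neuron markers ranged from 20.6 to 45.2 CPM in si-NC and from 46.7 to 59.2 CPM in si-METTL3, and striated muscle markers from 4.004 to 6.203 CPM with Myh1, Myh2 and Myh4 at 0. The part of other cells in the TRIM results was not tested.

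On a scale that allows for transcript length (FPKM, fragments scaled to transcript length and library size), 33 of the 68 genes had a mean of at least 1 FPKM and 13 of at least 10 FPKM. Trim28, the corepressor that KRAB zinc finger proteins recruit to silence transposons, stood highest at 216, 186 and 223 FPKM in si-NC and 195, 194 and 188 FPKM in si-METTL3. That gene made up 30.6% to 34.3% of the summed FPKM of the family. The sum over all 68 genes was 641, 610 and 652 FPKM in si-NC and 584, 591 and 591 FPKM in si-METTL3. Trim27 followed at 58.3 ± 5.26 FPKM in si-NC (SD, n = 3), then Trim8 at 44.2 ± 4.29, Trim44 at 35.9 ± 3.82 and Trim32 at 35.7 ± 3.99 FPKM. Trim8 was above Trim32 in each of the 6 libraries, while Trim44 lay on either side of Trim8 and of Trim32 depending on the library.

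**Figure D1:**
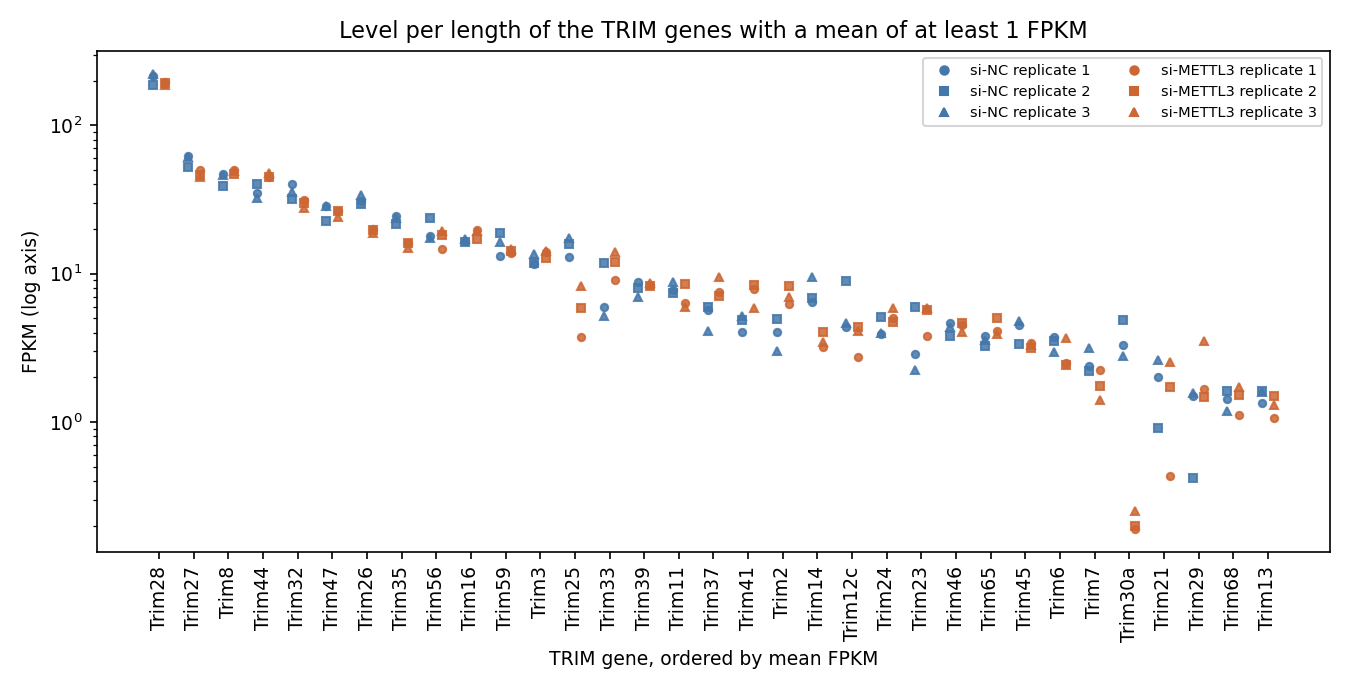
FPKM (log axis) of the 33 TRIM genes with a mean of at least 1 FPKM, ordered by that mean, with a point for each of the 3 si-NC and 3 si-METTL3 libraries. Trim28 stood above all others in every library, and Trim30a lay at 2.77 to 4.90 FPKM in si-NC and 0.19 to 0.25 FPKM in si-METTL3.

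Counts were sufficient for a test in 42 of the 68 genes, and 11 of them changed after Mettl3 knockdown (edgeR quasi-likelihood test, adjusted p under 0.05 over all genes tested). Levels were lower in si-METTL3 for 7 genes, Trim30a, Trim30c, Trim25, Trim14, Trim26, Trim35 and Trim27, which is 16.7% of those tested beside 10.2% of all 13082 tested genes. Levels were higher for 4 genes, Trim2, Trim41, Trim37 and Trim44, which is 9.52% beside 8.67% of all tested genes. In either direction 18.9% of all tested genes changed. For lower genes the background count moved by a larger factor than the TRIM count in each of the 6 fits that left out 1 library. Lower TRIM genes made up 13.6% beside 2.91% of all genes without si-NC replicate 1, 9.09% beside 2.72% without si-METTL3 replicate 2 and 13.6% beside 2.63% without si-METTL3 replicate 3. They made up 25.6% beside 18.9% without si-NC replicate 2, and without si-NC replicate 3 or si-METTL3 replicate 1 they made up 14% beside 6.08% and 11.4% beside 6.13%. Higher TRIM genes made up 2.27% to 14% in these 6 fits, beside 2.36% to 17.9% of all genes. No test of the difference in share was made. A change of at least 2-fold was seen in 4 of the 7 lower genes and in 1 of the 4 higher genes. The groups did not overlap in CPM for any of the 11, but these were chosen by the test, so this adds no support. Among all tested genes, called or not, 41.5% had groups that did not overlap. The median log2 fold change was -0.05 over the 42 TRIM genes and 0.03 over all tested genes.

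All 7 genes that fell encode PRY-SPRY proteins, a class with 37 members of which 22 were tested, 7 fell and 1 rose (median log2 fold change -0.15). None of the 20 tested genes of the other classes fell, and 3 of them rose. Each gene was placed in 1 class only, and some genes of the COS-box class also encode a SPRY domain. The PRY-SPRY class thus leaves out part of the SPRY proteins, and none of the 3 tested COS-box genes fell. The gene annotation in the authors' deposited table gives the process "innate immune response" to 24 of the 68 genes. Of the 17 tested genes with that term 7 fell and none rose (median log2 fold change -0.29), and of the 25 tested genes without it none fell and 4 rose (median 0.18). The terms "defense response to virus" (5 tested, 3 fell, median -1.31) and "protein ubiquitination" (28 tested, 2 fell, 3 rose, median -0.0018) were also read. Among all tested genes 10.2% fell and 8.67% rose, and the share among all genes with these terms was not counted. Whether the split by term is particular to TRIM genes is thus not known. These terms were chosen after values were seen, and no test of a difference between classes or terms was made.

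**Figure D2:**
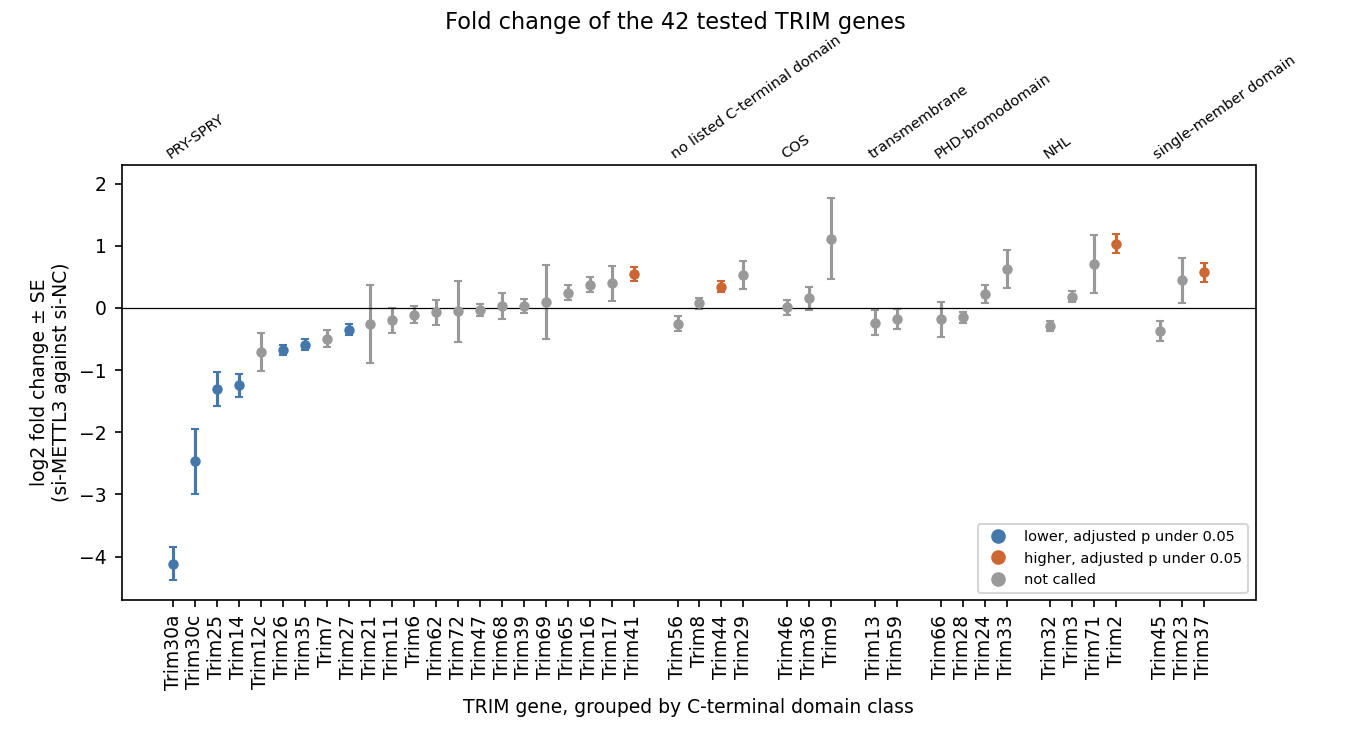
Log2 fold change of si-METTL3 against si-NC (points) with its standard error (bars) for the 42 tested TRIM genes, grouped by C-terminal domain class and coloured by whether the gene fell, rose or did not pass the test. The 7 genes that fell are all in the PRY-SPRY class and run from -4.12 to -0.35, while the 4 that rose lie in 4 classes.

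Trim30a had the largest fall of the family. In mouse it limits Toll-like receptor signalling to NF-kB by promoting the loss of TAB2 and TAB3. Trim30a was at 15.3, 22.3 and 12.9 CPM in si-NC and at 0.845, 0.891 and 1.18 CPM in si-METTL3. Each si-METTL3 library was thus far under the lowest si-NC library. The mean went from 16.8 ± 4.86 to 0.971 ± 0.180 CPM (SD, n = 3), a log2 fold change of -4.12 (SE 0.27, adjusted p = 0.000282), or 17.3-fold lower. Its relative Trim30c, next to it on chromosome 7, was near the limit of detection, with 21, 32 and 28 counts with si-NC against 2, 3 and 6 counts in si-METTL3. The groups did not overlap, and the log2 fold change was -2.47 (SE 0.53, adjusted p = 0.0214). Without si-METTL3 replicate 1 the adjusted p of Trim30c was 0.0617, and without si-METTL3 replicate 2 it was 0.0926. Trim30a shares 6.0% of its 50-base stretches with Trim30d, and Trim30d itself had 1 to 5 counts in any library.

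Trim25, Trim14, Trim26 and Trim35 encode proteins that act on RNA sensing or on the factors below it. Trim25, which ubiquitinates the RNA sensor RIG-I and is a cofactor of the antiviral protein ZAP, had 801, 828 and 1154 counts with si-NC against 221, 247 and 372 with si-METTL3, which is 22.8, 27.5 and 31.4 CPM and 6.91 to 15.1 CPM. The groups did not overlap, though the si-METTL3 libraries spread over more than a 2-fold range. Trim25 went from 15.4 ± 2.18 to 5.96 ± 2.23 FPKM (SD, n = 3, log2 fold change -1.31, SE 0.27, adjusted p = 0.0200). The adjusted p was 0.0829 without si-METTL3 replicate 2, with a log2 fold change of -1.32, and stayed under 0.05 without any other library. Trim14, which lacks a RING domain and binds the adaptor MAVS, was at 9.27, 9.36 and 12.7 CPM in si-NC and at 4.66, 4.81 and 3.69 CPM in si-METTL3. Every si-METTL3 library lay under every si-NC library (log2 fold change -1.25, SE 0.18, adjusted p = 0.00652). Exons of Trim14 overlap Nans on the opposite strand, and 33.9% of its 50-base stretches occur in other genes when both strands are read. The sources used here do not say whether reads were assigned by strand, so the Trim14 value is uncertain. Nans was at 142 ± 12.5 CPM in si-NC and at 152 ± 4.02 CPM in si-METTL3 (log2 fold change 0.10, adjusted p = 0.412).

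Trim26 and Trim35 were more abundant and changed less. Trim26, a ligase reported to act on IRF3 in the nucleus, was at 89.2, 82.6 and 94.2 CPM in si-NC and at 58.5, 53.8 and 54.1 CPM in si-METTL3. All 3 si-METTL3 libraries lay well under the si-NC libraries, and the spread in each group was small. Its mean went from 88.7 ± 5.79 to 55.5 ± 2.62 CPM (log2 fold change -0.68, SE 0.08, adjusted p = 0.00316). Trim35, whose protein binds IRF7, was at 108.9, 93.8 and 106.6 CPM in si-NC and at 69.2, 71.3 and 64.9 CPM in si-METTL3. The groups stood apart in the same way, with a log2 fold change of -0.59 (SE 0.08, adjusted p = 0.00602). Trim27, the ret finger protein, which acts on the endosomal WASH complex, had the smallest of the 7 falls. It was at 126.3, 107.7 and 125.8 CPM in si-NC and at 99.1, 92.4 and 90.7 CPM in si-METTL3, and si-NC replicate 2 was the si-NC library nearest to the si-METTL3 group. The log2 fold change of Trim27 was -0.35 (SE 0.09, adjusted p = 0.0332). Without si-NC replicate 2 the adjusted p was 0.00523, and without any 1 of the other 5 libraries it was between 0.0554 and 0.131.

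**Figure D3:**
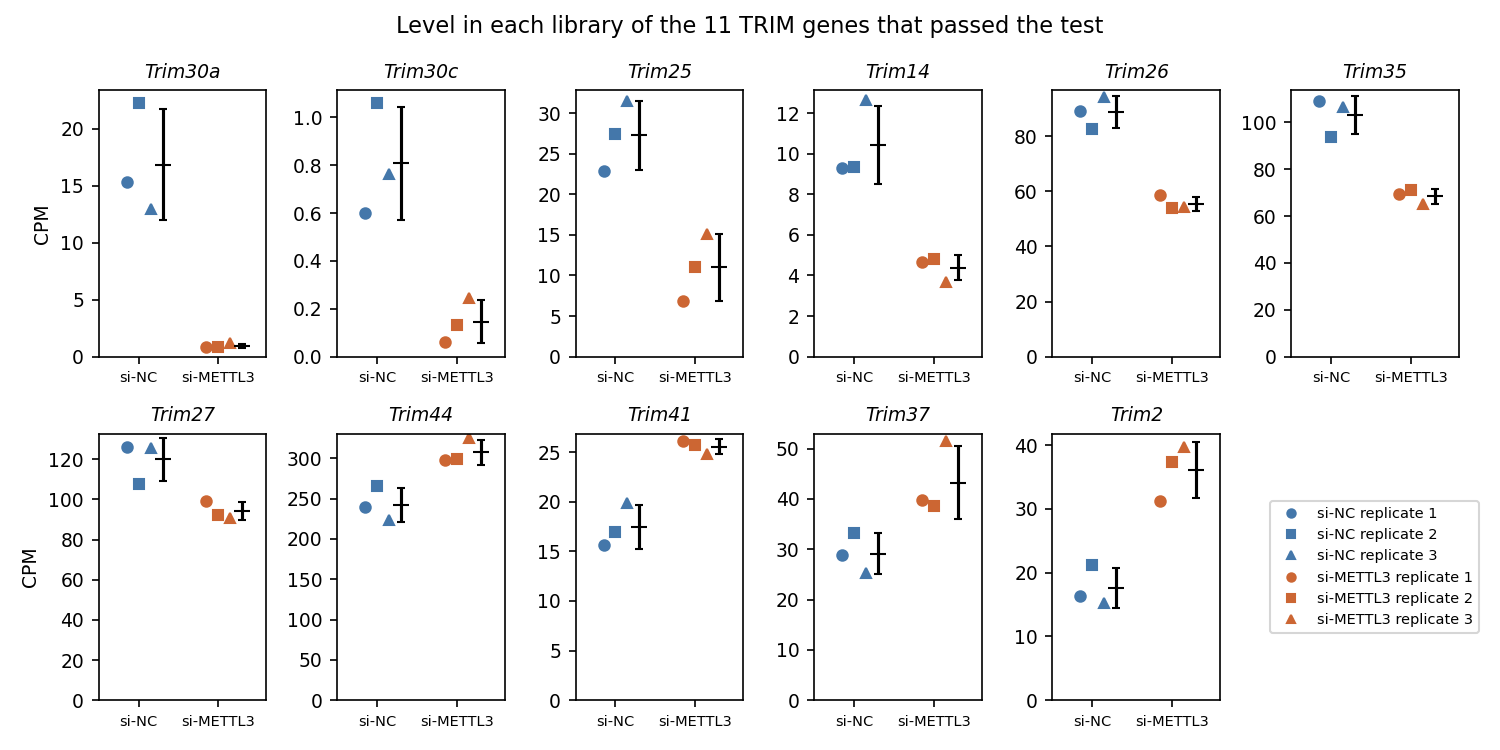
CPM (linear axis from 0) in each of the 3 si-NC and 3 si-METTL3 libraries for the 11 TRIM genes that passed the test, with the mean and SD of each group. In no panel do the groups overlap, and the gap is widest relative to the level for Trim30a, which went from 16.8 to 0.971 CPM.

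Of the higher genes Trim2 changed most. Its protein carries NHL repeats and ubiquitinates neurofilament light chain in neurons. Trim2 was at 16.4, 21.2 and 15.2 CPM in si-NC and at 31.2, 37.3 and 39.7 CPM in si-METTL3, with a wide gap between the groups. Its mean went from 17.6 ± 3.19 to 36.1 ± 4.37 CPM (SD, n = 3), a log2 fold change of 1.04 (SE 0.16, adjusted p = 0.00746). The summed level of neuron markers was also higher in si-METTL3, as given above, and most of it came from Map2 and Tubb3. Of 9 tested neuron markers 2 rose, beside 8.67% of all tested genes. The list was mixed: Tubb3 had 172, 152 and 244 counts with si-NC against 398, 275 and 264 with si-METTL3. Nefl, which encodes neurofilament light chain, had 0, 40 and 38 counts against 40, 25 and 24. The part of neuron-type transcripts in the Trim2 value was not tested.

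The other 3 genes rose by less than 2-fold and with less margin. Trim41, a PRY-SPRY ligase for protein kinase C, was at 15.6, 16.95 and 19.9 CPM in si-NC and at 26.2, 25.8 and 24.8 CPM in si-METTL3. Its log2 fold change was 0.55 (SE 0.11, adjusted p = 0.0189). The Trim41 groups stood apart, and the adjusted p was under 0.05 without si-NC replicate 2 or 3 and between 0.0592 and 0.0798 without each of the other 4 libraries. Trim37, a ligase of centrosomes and peroxisomes, was at 29.0, 33.2 and 25.3 CPM in si-NC and at 39.7, 38.5 and 51.6 CPM in si-METTL3. The log2 fold change of Trim37 was 0.57 (SE 0.15, adjusted p = 0.0401), with si-METTL3 replicate 3 above the other 2 libraries of its group. Trim44, which lacks a RING domain and stabilises MAVS, was at 239.3, 265.2 and 223.1 CPM in si-NC and at 298.0, 299.2 and 325.0 CPM in si-METTL3. Its log2 fold change was 0.34 (SE 0.08, adjusted p = 0.0312). Without si-NC replicate 2 the adjusted p was 0.0178 for Trim37 and 0.00647 for Trim44, and without any 1 of the other 5 libraries it was between 0.0737 and 0.129 for Trim37 and between 0.0846 and 0.130 for Trim44. With each library corrected for its own trend with transcript length, the log2 fold change was 0.39 for Trim37 (adjusted p = 0.0721) and 0.12 for Trim44 (adjusted p = 0.216).

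Leaving out each library in turn kept 5 of the 11 calls in all 6 fits, those of Trim30a, Trim14, Trim26, Trim35 and Trim2. Over these fits the log2 fold change ranged from -4.30 to -3.87 for Trim30a, from -1.33 to -1.11 for Trim14, from -0.74 to -0.66 for Trim26, from -0.66 to -0.55 for Trim35 and from 0.91 to 1.19 for Trim2. Without si-NC replicate 3, the library with more lung and blood marker counts than the other si-NC libraries, 8 of the 11 calls remained. The libraries then left differ by group in those markers, so this fit cannot separate them from the knockdown. The authors' deposited table gives 12 TRIM genes a false discovery rate under 0.05, the 11 called here with the same signs and Trim16.

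**Figure D4:**
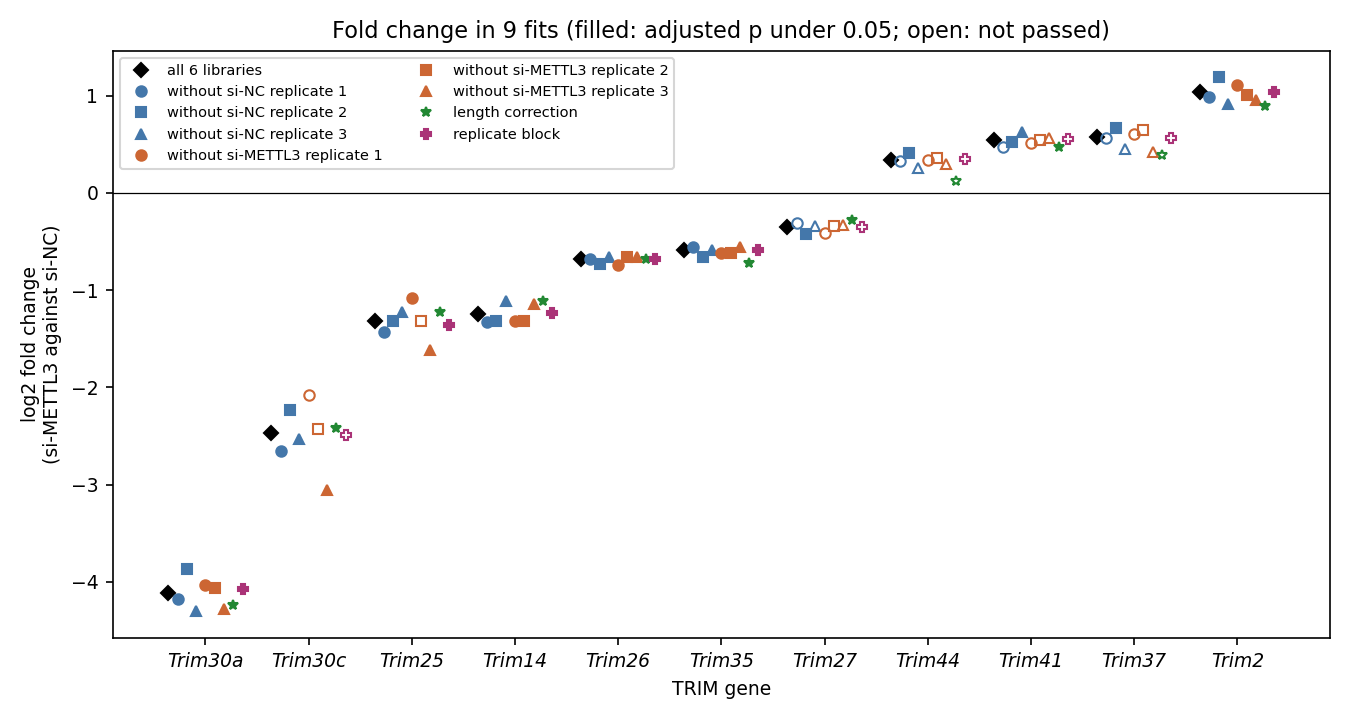
Log2 fold change (si-METTL3 against si-NC) of the 11 called TRIM genes in 9 fits: all 6 libraries, without each library in turn, with a correction for transcript length and with replicate number as a block. Filled symbols passed an adjusted p of 0.05 and open symbols did not. Trim30a, Trim14, Trim26, Trim35 and Trim2 are filled in all 9, and no symbol crosses 0.

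Promoter sequence was read for motifs because several of the genes that fell belong to the antiviral branch of the family. RefSeq promoters of GRCm38.p6, 300 bases each with 250 before the start and 50 after it, matched 53 of the 68 genes. The motif of the interferon-stimulated response element was searched on both strands as GAAA, any 2 bases, then GAAA (read as TTTC, any 2 bases, then TTTC on the other strand). This element is the site through which interferon-activated STAT and IRF factors bind DNA. The motif was present in 9 of the 53 genes (16.98%) and in 1079 of 27025 genes with a promoter (3.99%). Those 9 were Trim12a, Trim12c, Trim2, Trim21, Trim26, Trim30a, Trim30d, Trim34a and Trim5. Of these, Trim12a, Trim12c, Trim30a, Trim30d, Trim34a and Trim5 lie in the same cluster on chromosome 7. The windows of Trim12a, Trim12c and Trim5 are near copies of each other around the match, and so are those of Trim30a and Trim30d. The 9 genes are therefore not independent of each other in this share. Among tested genes with a promoter the motif was found in 2 of 5 that fell, in 1 of 4 that rose and in 2 of 22 that did not pass. Trim14 and Trim35, which also fell, had no promoter in the set and were not read. Sequences follow for 2 genes that fell and hold the motif (Trim30a and Trim26), 1 that fell without it (Trim25), 1 that rose with it (Trim2, in 1 of its windows), and 2 that hold it and did not pass (Trim21 and Trim12c). Each is given 5′ to 3′ on the strand of its gene, with motif matches in capitals. Trim30a is chr7:104446076-104446375 on the minus strand, Trim26 is chr17:36836896-36837195 on the plus strand, Trim25 is chr11:88999153-88999452 on the plus strand, Trim2 is chr3:84212789-84213088 on the minus strand, Trim21 is chr7:102565433-102565732 on the minus strand, and Trim12c is chr7:104353300-104353599 on the minus strand.
Trim30a: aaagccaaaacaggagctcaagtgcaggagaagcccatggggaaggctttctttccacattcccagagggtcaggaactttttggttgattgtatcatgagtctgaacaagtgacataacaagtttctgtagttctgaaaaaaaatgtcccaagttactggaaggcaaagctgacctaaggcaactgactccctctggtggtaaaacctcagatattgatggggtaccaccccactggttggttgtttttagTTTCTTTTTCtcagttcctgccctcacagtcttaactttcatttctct
Trim26: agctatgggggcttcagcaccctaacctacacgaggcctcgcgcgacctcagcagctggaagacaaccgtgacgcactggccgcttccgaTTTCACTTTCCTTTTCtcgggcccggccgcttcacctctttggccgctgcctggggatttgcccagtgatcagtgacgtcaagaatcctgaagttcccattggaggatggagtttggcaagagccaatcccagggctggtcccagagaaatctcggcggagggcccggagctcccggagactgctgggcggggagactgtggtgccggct
Trim25: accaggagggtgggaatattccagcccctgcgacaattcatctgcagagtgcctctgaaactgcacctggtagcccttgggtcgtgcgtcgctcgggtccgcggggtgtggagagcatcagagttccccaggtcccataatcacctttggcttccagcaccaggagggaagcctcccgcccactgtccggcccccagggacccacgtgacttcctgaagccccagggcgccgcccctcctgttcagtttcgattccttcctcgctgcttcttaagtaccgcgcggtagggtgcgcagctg
Trim2: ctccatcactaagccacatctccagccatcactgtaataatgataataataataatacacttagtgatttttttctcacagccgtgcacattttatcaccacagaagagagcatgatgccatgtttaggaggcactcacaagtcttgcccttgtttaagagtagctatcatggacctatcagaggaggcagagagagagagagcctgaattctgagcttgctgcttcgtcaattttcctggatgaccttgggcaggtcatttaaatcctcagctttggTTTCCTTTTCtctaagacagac
Trim21: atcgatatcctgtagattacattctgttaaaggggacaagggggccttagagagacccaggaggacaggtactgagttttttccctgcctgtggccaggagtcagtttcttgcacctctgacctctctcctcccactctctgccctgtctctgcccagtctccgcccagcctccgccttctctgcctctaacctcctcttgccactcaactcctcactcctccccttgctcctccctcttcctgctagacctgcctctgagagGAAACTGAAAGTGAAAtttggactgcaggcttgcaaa
Trim12c: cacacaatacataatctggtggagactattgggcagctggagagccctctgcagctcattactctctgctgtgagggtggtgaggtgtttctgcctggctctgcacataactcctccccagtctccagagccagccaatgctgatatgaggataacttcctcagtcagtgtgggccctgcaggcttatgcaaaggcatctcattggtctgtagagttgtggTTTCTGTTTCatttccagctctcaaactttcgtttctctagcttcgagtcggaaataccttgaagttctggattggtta

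The Trim26 and Trim21 windows each hold 2 overlapping matches, and Trim30a holds 1 match in each of its 2 windows. The printed sequences of Trim30a, Trim26, Trim2 and Trim12c carry the motif in the TTTC form, and that of Trim21 in the GAAA form. The first match begins 29 bases before the start in Trim12c and 160 bases before it in Trim26. In the printed windows of Trim30a, Trim21 and Trim2 it begins 2, 13 and 28 bases after the start. The printed Trim30a window belongs to a start inside the annotated gene. In the other Trim30a window, chr7:104465144-104465443 at the 5′ end of the annotated gene, the match begins 36 bases before the start. The gamma-activated site, TTCNNNGAA on either strand, was present in 6 of the 53 genes (11.3%) and in 9.55% of all genes with a promoter. Those 6 were Trim15, Trim30c, Trim31, Trim38, Trim45 and Trim46, and Trim30c is the 1 gene among them that fell. A match is a description of the letters in this window and not a site of binding.

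Trim21 and Trim12c, which hold the same motif, varied between libraries. Trim21, the cytosolic receptor for antibody-coated virus, was at 6.82, 3.02 and 9.02 CPM in si-NC and at 1.44, 5.79 and 8.68 CPM in si-METTL3. Its groups overlapped throughout, and the log2 fold change was -0.26 (SE 0.63, adjusted p = 0.790). Trim12c had a log2 fold change of -0.71 (SE 0.31, adjusted p = 0.144), with si-NC replicate 2 at 32.8 CPM and the other si-NC libraries at 16.8 and 17.3 CPM. It shares 33.7% of its 50-base stretches with other genes, most of them Trim5, so its counts are uncertain.

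The remaining 31 tested genes include the most abundant of the family. Among PHD-bromodomain genes none of 4 passed: Trim28 was at 208 ± 19.5 FPKM in si-NC and 192 ± 3.71 FPKM in si-METTL3 (log2 fold change -0.15, SE 0.09, adjusted p = 0.269). The log2 fold change was 0.22 for Trim24, a cofactor of nuclear receptors, 0.63 for Trim33, which acts on SMAD4, and -0.19 for Trim66. Trim33 had an SE of 0.30 and overlapping groups. Without si-NC replicate 2 it passed with a log2 fold change of 1.03 (adjusted p = 0.0122), and Trim28 passed with -0.23 (adjusted p = 0.0167).

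Among NHL genes Trim32, a ligase mutated in a limb-girdle muscular dystrophy, was at 35.7 ± 3.99 FPKM in si-NC and 29.7 ± 1.92 FPKM in si-METTL3 (log2 fold change -0.29, adjusted p = 0.0571). The log2 fold change was 0.18 for Trim3 and 0.71 for Trim71, the mRNA repressor LIN41 of early germ and stem cells, whose mean was under 1 CPM in both groups. The COS-box genes Trim46, Trim36 and Trim9 had log2 fold changes of 0.01, 0.15 and 1.12. Trim9, a neuronal ligase, was at a mean of 0.322 CPM in si-NC and 0.708 CPM in si-METTL3 (SE 0.65, adjusted p = 0.255). The transmembrane ligases Trim13 and Trim59 had log2 fold changes of -0.24 and -0.18. Trim23 and Trim45, which were placed outside the larger classes, had log2 fold changes of 0.45 and -0.37. Without si-NC replicate 2, Trim23 passed with 0.95 (adjusted p = 0.0226), Trim45 with -0.52 (adjusted p = 0.0140) and Trim32 with -0.36 (adjusted p = 0.00799).

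Of the genes with no listed C-terminal domain, Trim8, which acts on SOCS1, was at 44.2 ± 4.29 FPKM in si-NC and 48.7 ± 1.31 FPKM in si-METTL3 (log2 fold change of counts 0.07), and a length correction turned the sign to -0.047. Trim56, an antiviral ligase, was at 19.6 ± 3.41 FPKM in si-NC and 17.4 ± 2.49 FPKM in si-METTL3 (log2 fold change -0.25, adjusted p = 0.190), and with the length correction it was called lower (-0.48, adjusted p = 0.00948). Trim29 had a log2 fold change of 0.53 (adjusted p = 0.145). Among PRY-SPRY genes Trim47 was at 26.6 ± 3.35 FPKM in si-NC and 25.6 ± 1.42 FPKM in si-METTL3 (log2 fold change -0.04). Trim16, which takes part with galectins in clearing damaged lysosomes, was at 16.7 ± 0.509 FPKM in si-NC and 18.7 ± 1.36 FPKM in si-METTL3. Its log2 fold change was 0.37 (adjusted p = 0.0626), and 0.17 in the authors' deposited table (false discovery rate 0.0475). With the length correction Trim16 was called higher (0.39, adjusted p = 0.0485).

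The rest of the PRY-SPRY class moved little or was measured with a wide error. Trim7 had a log2 fold change of -0.49 (adjusted p = 0.0530) with groups that did not overlap, and without si-NC replicate 2 it passed with -0.53 (adjusted p = 0.0402). The log2 fold changes were -0.20 for Trim11, -0.11 for Trim6, -0.07 for Trim62, -0.06 for Trim72, 0.03 for Trim68, 0.03 for Trim39, 0.10 for Trim69, 0.25 for Trim65 and 0.39 for Trim17. Their adjusted p ranged from 0.203 for Trim65 to 0.947 for Trim72.

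The other 26 genes were below the filter on low counts. Of these, Trim15, Trim38, Trim42, Trim43c, Trim50, Trim52, Trim60 and Trim75 were at 0 counts in all 6 libraries. The remaining 18 had at most 51 counts summed over the 6 libraries and at most 19 in any 1 library: Trim5, Trim10, Trim12a, Trim30b, Trim30d, Trim31, Trim34a, Trim34b, Trim40, Trim43a, Trim43b, Trim54, Trim55, Trim58, Trim61, Trim63, Trim67 and Trim80. The muscle ring finger genes Trim54 and Trim55 were at 0 or 1 count in each library. Trim63, another gene of that group, had 2, 4 and 6 counts with si-NC against 10, 10 and 19 with si-METTL3. Trim34a had 9, 15 and 14 counts with si-NC against 2, 4 and 6 with si-METTL3. Trim34b had 2, 6 and 4 counts with si-NC against 0 in each si-METTL3 library, at least 3.04-fold lower against a floor of 3 counts over the group. The sequences of Trim34a and Trim34b share 59.7% and 56.8% of their 50-base stretches with other genes, so reads could be split between them.

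In the genome (GRCm38 positions), 26 of the 68 genes lie in 7 clusters, in which each member lies within 200 kb of the next, and the other 42 lie alone. On chromosome 7, between 104218793 and 104507849, lie 10 of the 68: Trim6, Trim34a, Trim5, Trim12a, Trim34b, Trim12c, Trim30b, Trim30c, Trim30a and Trim30d. Of the 4 that were tested, Trim30a and Trim30c fell and Trim6 and Trim12c did not pass. Trim30a spans chr7:104409025-104465193 and Trim30c chr7:104382065-104400837, both on the minus strand. On chromosome 17, between 36837134 and 36910214, Trim26 fell, and its neighbours Trim15, Trim10, Trim40 and Trim31 had too few counts for a test. Trim26 spans chr17:36837134-36859398 on the plus strand. Trim41, which rose, and Trim7, which did not pass, lie together on chromosome 11 between 48806404 and 48852209. Trim25 and Trim14 lie apart from other members, at chr11:88999376-89020293 on the plus strand and chr4:46493781-46536141 on the minus strand.

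The deposited lncRNA table holds 36 transcripts that GENCODE assigns to 23 TRIM genes, all annotated as processed transcripts without a coding frame. Of the 13 with enough counts for a test none was called (edgeR quasi-likelihood test), beside 0.733% of 5728 tested transcripts, and 2 had an unadjusted p under 0.05. Trim26 transcript ENSMUST00000156872 had 605, 447 and 787 counts with si-NC against 336, 264 and 261 with si-METTL3. Its groups did not overlap, and its log2 fold change was -0.80 (unadjusted p = 0.00701, edgeR adjusted p = 0.160). Trim14 transcript ENSMUST00000142502 had 52, 55 and 107 counts with si-NC against 18, 37 and 24 with si-METTL3 (log2 fold change -1.09, unadjusted p = 0.0484, edgeR adjusted p = 0.319). These transcripts come from the same libraries as the mRNA counts and can share reads with the coding transcripts.

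The ratio of counts to FPKM, scaled by the summed mRNA and lncRNA counts of the library, gives an implied transcript length. The total that the authors scaled by is not given, and another total would shift all lengths of a library. For 30 TRIM genes with at least 1 FPKM in every library, the implied length did not overlap between groups for Trim13, Trim16 and Trim25, which were longer in si-METTL3, and for Trim8 and Trim23, which were shorter. That is 16.7% beside 13.4% of 10251 genes. An exact permutation test gave p = 0.1 for each, its lowest possible value with 3 libraries per group. The gap was narrow for Trim13, at 1726 to 1739 bases in si-NC and 1741 to 1786 in si-METTL3. It was also narrow for Trim23, at 3888 to 3911 and 3866 to 3876 bases. Rounding of the deposited FPKM could account for a gap as small as that of Trim13. The implied length of Trim16 was 2214, 2138 and 2268 bases in si-NC and 2543, 2444 and 2764 bases in si-METTL3, and that of Trim25 was 1604, 1611 and 1638 bases in si-NC and 1728, 1735 and 1688 bases in si-METTL3. For Trim16 the difference in length stands beside a log2 fold change of 0.37 in counts and 0.17 in the authors' FPKM.

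Genes that TRIM proteins work with were read from lists in the same way. Of 10 TRIM-family genes that carry other names, 6 were tested and 1 fell: Pml, the scaffold of nuclear bodies, at 143 ± 17.01 CPM in si-NC and 72.8 ± 3.91 CPM in si-METTL3 (log2 fold change -0.97, SE 0.10, adjusted p = 0.00205). Among all tested genes 10.2% fell and 8.67% rose, the background for the counts below. Of 18 genes of the RNA and DNA sensing path 6 fell and none rose, with a median log2 fold change of -0.26 beside 0.03 over all genes. They were Isg15, the ubiquitin-like modifier (-3.70), Irf7, an interferon gene activator (-3.38), the RIG-I-like receptors Dhx58 (-2.83), Ddx58 (-1.85) and Ifih1 (-1.17), and Zc3hav1, which encodes ZAP (-0.56). Ddx58, the target of TRIM25, went from 282 ± 13.9 to 78.1 ± 3.30 CPM (adjusted p = 5.42e-05). Ifih1 passed in 2 of the 6 fits without 1 library. Mavs (-0.13), Irf3 (0.03), Tbk1 (0.14), Cgas (0.08) and Sting1 (-0.39), to which several TRIM proteins bind, did not pass.

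Of 16 E1 and E2 enzymes, 4 fell and none rose, beside 10.2% and 8.67% of all tested genes (median log2 fold change -0.10). The ISG15 enzymes Uba7 (log2 fold change -1.50) and Ube2l6 (-2.86) fell most, and the ubiquitin E2 genes Ube2g2 (-0.51) and Ube2e1 (-0.46) fell less and passed in 3 and 2 of the 6 fits without 1 library. The E2 genes Ube2d3 (-0.24), Ube2n (-0.15) and Ube2w (0.04) did not pass. Of 18 partners of TRIM28, TRIM24 and TRIM33, 1 fell, the deacetylase gene Hdac2 (-0.43, adjusted p = 0.0198), and 1 rose, the remodeller gene Chd4 (0.29, adjusted p = 0.0270), with a median of 0.12 and no larger a share in either direction than among all tested genes. Setdb1, the histone methyltransferase that TRIM28 recruits, had a log2 fold change of 0.02 and did not pass. Hdac2 passed in 2 and Chd4 in 1 of the 6 fits that left out 1 library.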

How the data were processed

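RNA of 6 GC-1spg libraries was deposited as 2 tables, an mRNA table of 22298 genes and an lncRNA table of 30924 transcripts. Per the file headers, the authors gave raw read counts and FPKM for each library, and their own fold change on the log2 scale with a p-value and a false discovery rate. The submitters' processing notes name fastp, Bowtie2, StringTie, RSEM and the build mm9, without versions or roles. Strand use and the splitting of reads shared by several genes are not given in the sources used here.

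From the deposited counts, edgeR 4.0.16 (R 4.3.3) with TMM factors and filterByExpr tested si-METTL3 against si-NC by the quasi-likelihood test, two-sided, with Benjamini-Hochberg adjustment over all 13082 tested genes at 0.05. A gene that passed is said to have fallen, risen or changed. CPM values use TMM-scaled library sizes. limma 3.58.1, DESeq2 1.42.0 and the other alternatives appear in the closing section. The scripts were tested on simulated data. All 68 Ensembl identifiers matched GENCODE M21 (GRCm38), and no coordinate was converted between builds. Domain classes and roles come from general knowledge. Every member that passed is named with its values, every other tested member by its fold change, and the 6 most abundant of those also by group values. Members and lists were chosen with earlier results of these data known.

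Depth limits precision: a gene with 0 counts may be present below 3 counts, and intervals were not computed for single libraries.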

Additional observations from a re-analysis of the deposited data

How the results depend on the processing

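The count of TRIM genes that fell was 7, ranged from 4 (without si-METTL3 replicate 2) to 11 (without si-NC replicate 2) when each library was left out in turn, and was between 5 and 8 under the other alternatives. The count that rose was 4 and ranged from 1 (without si-NC replicate 1 or any si-METTL3 library) to 6 (without si-NC replicate 2). It was 1 with limma on log2(FPKM + 1) without a filter, and that gene was Trim44. Trim2 did not pass in that limma fit (log2 fold change 0.72, adjusted p = 0.0507). Over all genes, 1334 fell and 1134 rose, with 350 to 2527 and 315 to 2390 when each library was left out. The cause was not tested. Among the values of called genes under the alternatives, 149 kept direction and call, 35 kept direction without passing and 0 changed sign.

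Replicate numbers are shared by the groups. Deviations of same-numbered libraries from their group means correlated at 0.025, 0.171 and -0.257 over 13082 genes. These values do not show that the numbers pair the libraries, and with group means of only 3 libraries they cannot exclude it. With the replicate number as a block, 5 TRIM genes fell (Trim30c and Trim27 did not pass, adjusted p = 0.0512 and 0.0616) and 1 rose, while over all genes 710 fell and 563 rose. The block also turned the sign of 2 uncalled genes, Trim72 (0.089) and Trim69 (-0.037).

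Genes whose log2 fold change changed sign were all near 0 or wide in error, and none passed. The length correction gave -0.047 for Trim8, -0.037 for Trim39 and -0.043 for Trim46. Without a filter Trim46 was at -0.0021 and with DESeq2 at -0.00074. With limma-voom Trim72 was at 0.13 and Trim69 at -0.18. Leaving out each library gave ranges of -0.015 to 0.12 for Trim8, -0.082 to 0.12 for Trim39, -0.084 to 0.080 for Trim46, -0.83 to 0.18 for Trim21, -0.11 to 0.18 for Trim68, -0.21 to 0.11 for Trim62, -0.33 to 0.60 for Trim72 and -0.55 to 0.52 for Trim69. Depth limits the 26 untested genes and Trim30c, and sequence shared with other genes could limit the tested genes Trim12c, Trim14, Trim17 and Trim72 and the untested Trim5, Trim34a, Trim34b and Trim43a to Trim43c, since strand use and read splitting are unknown.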
